A study of Equus caballus with 24 samples.

Results

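The insulin-like growth factor (IGF) system was described here by its ligands, receptors and binding proteins in the pituitary and the epiphysis, or end, of the long bones of 2 horse breeds. The genes were taken by their symbol in the deposited tables, with 10 genes listed: IGF1, IGF2, IGF1R, IGF2R, IGFALS and IGFBP2 to IGFBP6. Of these 10 genes, 7 were found under the symbol itself and IGFBP5 under the spelling IGFBP-5, which RefSeq gives as its synonym, so 8 genes of 24232 in the table of reads are described. IGF2 and IGFALS were not analysed here.

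The libraries came from 12 healthy female horses killed at a slaughterhouse, 6 Debao ponies (DPs), a small breed, and 6 Mongolian horses (MHs), with 3 juveniles and 3 adults of each breed. The labels give only juvenile or adult as the stage, and neither they nor the methods name a treatment of these animals. Each horse gave both tissues, which makes 24 libraries in 8 groups of 3: in DPs the pituitary of juveniles (DPPJ) and adults (DPPA) and the long bone of juveniles (DPLBJ) and adults (DPLBA), and in MHs, in this order, MHPJ, MHPA, MHLBJ and MHLBA. Breed cannot be told apart from whatever else differed between the animals of the breeds, and the labels do not say which part of the gland or of the bone end was ground.

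IGF1 and IGF2 are peptide hormones that signal through the receptor tyrosine kinase encoded by IGF1R. The receptor encoded by IGF2R takes IGF2 up for degradation and carries lysosomal enzymes. IGF-binding proteins hold IGFs in the circulation and the tissue matrix, can block or prolong their action, and are cut by proteases such as PAPPA and PAPPA2. In the growth plate, growth hormone and locally made IGF1 promote the proliferation and hypertrophy of chondrocytes, while circulating IGF1 comes mainly from the liver, which was not sampled among these libraries.

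The libraries held between 11433209 and 27007342 reads on genes. Levels of 1 gene between libraries are given as CPM, read counts relative to the library total after TMM scaling, and levels between genes as the deposited RPKM, which is also divided by gene length. The TMM factor lay between 0.873 and 1.24 in 23 libraries and was 0.602 in MHLBA replicate 1. The hormone genes of the anterior pituitary, of which 11 of 15 were found, summed to between 19070 and 48310 CPM in 7 pituitary libraries and to between 64.8 and 2210 CPM in the other 5, which were DPPA replicate 1, MHPA replicate 1 and all 3 MHPJ libraries. Markers of the posterior lobe (13 of 14 found) summed to between 12572 and 22334 CPM in these 5 libraries and to between 1529 and 6739 CPM in the other 7. MHPJ replicate 2 also had 1019 CPM of skeletal muscle markers and 318 CPM of blood cell markers, against at most 16.6 and 3.63 CPM in the other 11 pituitary libraries. In bulk tissue, fewer cells of a type and less RNA per cell cannot be told apart.

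On the RPKM scale the IGF system differed most in IGF1, which was the lowest of the 8 genes in all 12 pituitary libraries and lay above IGF1R or IGF2R in most long bone libraries. IGF1 (ENSECAG00000010109) had between 0.280 and 4.09 RPKM in the pituitary and between 5.63 and 46.2 RPKM in the long bone. The pituitary values rested on 8 to 66 reads per library and the long bone values on 139 to 862 reads. The 4 long bone groups had the highest means, from 26.5 ± 17.4 RPKM (SD, n = 3) in DPLBJ to 12.5 ± 6.24 RPKM (SD, n = 3) in DPLBA, and each overlapped the next in order. The step from DPLBA to the highest pituitary group, MHPJ with 2.78 ± 1.20 RPKM (SD, n = 3), was the only one of these without overlap.

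The receptors overlapped between the tissues. IGF1R (ENSECAG00000021238) ranged between 4.35 and 9.96 RPKM in the pituitary and between 5.04 and 14.3 RPKM in 11 long bone libraries. MHLBA replicate 1 stood apart with 43.2 RPKM from 4177 reads. IGF2R (ENSECAG00000019509) ranged between 3.88 and 12.1 RPKM in the pituitary and between 5.18 and 11.35 RPKM in the long bone, with neighbouring groups that all overlapped.

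The binding proteins reached higher levels and varied more between libraries. Their summed RPKM lay between 39.0 and 359 in the pituitary and between 64.0 and 887 in the long bone. The highest of the 8 genes in a pituitary library was IGFBP5 in 6 libraries, IGFBP2 in 3, IGFBP6 in 2 and IGFBP4 in 1. In the long bone it was IGFBP2 in 6 libraries, IGFBP4 in 5 and IGF1R in MHLBA replicate 1. IGFBP5 had the widest range in the pituitary, between 1.81 and 219 RPKM, and IGFBP2 in the long bone, between 9.41 and 451 RPKM. The gene lengths in the tables, 586 bases for IGFBP2 and 585 bases for IGFBP3, are short, and RPKM scales with the length used, so the order of genes depends on these gene models.

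**Figure D1:**
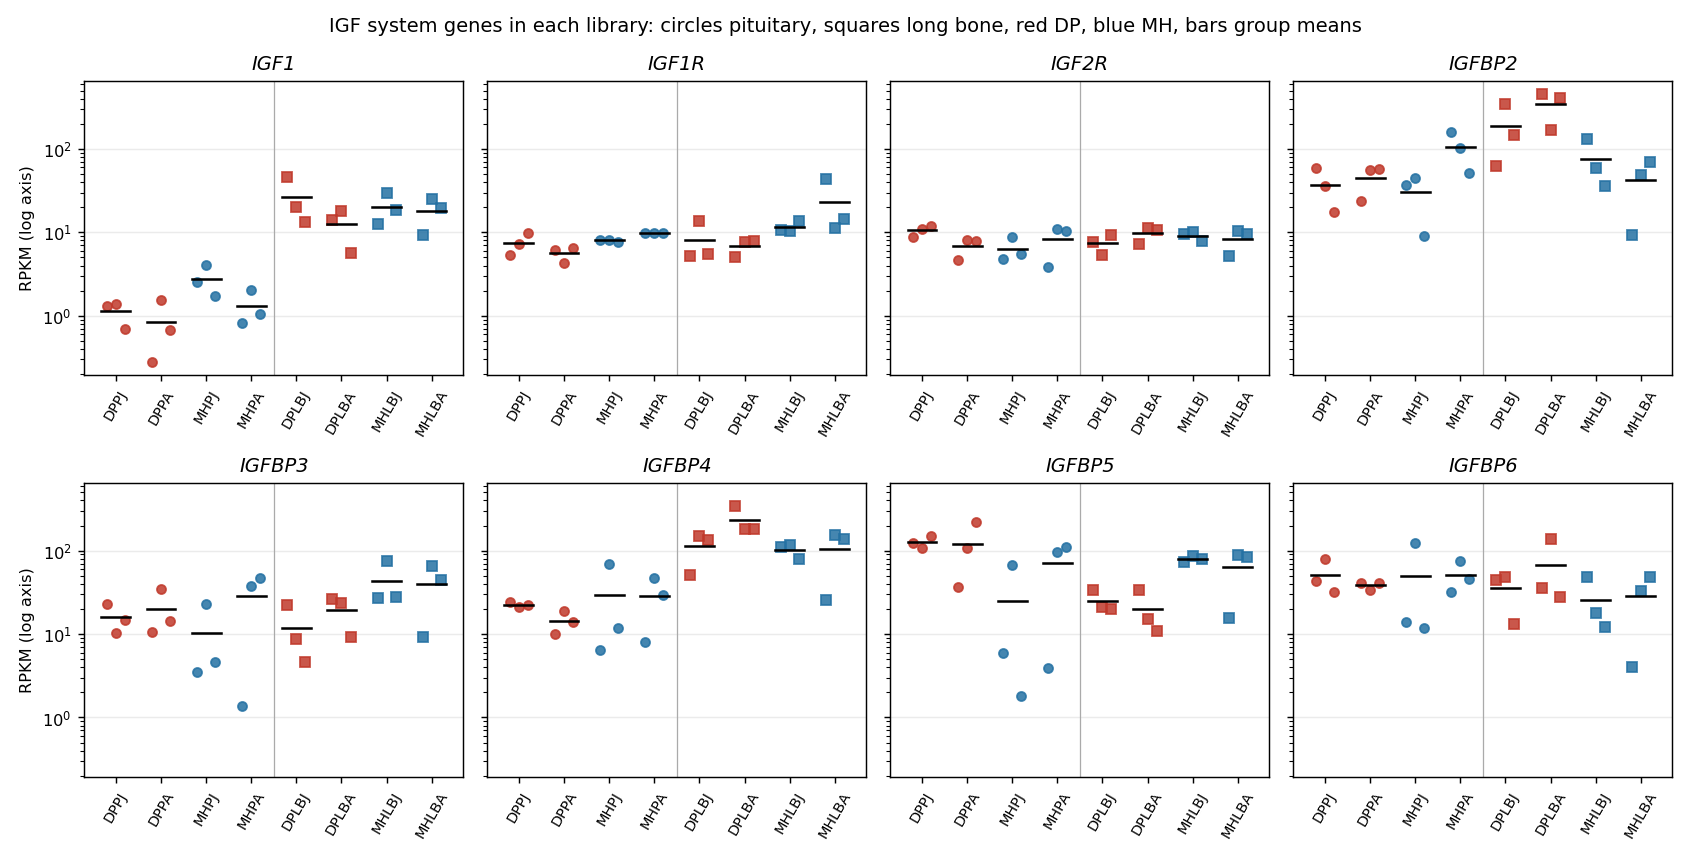
RPKM of the 8 IGF system genes (log axis) in each of the 24 libraries, by group, with the group mean as a bar (n = 3). IGF1 lies at 4.09 RPKM or less in the 12 pituitary libraries and at 5.63 RPKM or more in the 12 long bone libraries, and IGF1R of MHLBA replicate 1 lies at 43.2 RPKM.

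Between the tissues, 3 of the 8 genes were lower in the pituitary by the threshold of the study, a change of over 2-fold at an unadjusted P under 0.05, and 0 were higher. Over all 16131 genes tested, 17.4% passed this threshold as lower and 21.5% as higher in the pituitary. The 4 pituitary groups were averaged and set against the 4 long bone groups with edgeR's quasi-likelihood test. This test did not pair the tissues of a horse, since the labels do not say which libraries share an animal. With an adjusted p under 0.05 alone, 4 of 8 passed, against 61.8% of all genes, and the median log2 fold change of the 8 was -0.71 against 0.032 over all genes.

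IGF1 fell by 3.92 on the log2 scale in the pituitary (SE 0.331, adjusted p = 1.65e-08), a 15.2-fold difference, and the libraries of the tissues did not overlap. IGFBP4 (ENSECAG00000011271), the binding protein cut by PAPPA, had between 6.79 and 76.9 CPM in the pituitary and between 43.6 and 376 CPM in the long bone. The difference was -2.64 on the log2 scale (SE 0.360, adjusted p = 4.90e-06), with 1 pituitary library, MHPJ replicate 2, above the long bone libraries MHLBA replicate 1 and DPLBJ replicate 1 (61.3 CPM). IGFBP2 (ENSECAG00000012058) was also lower in the pituitary, at -1.41 on the log2 scale (SE 0.365, adjusted p = 0.00257) and libraries that overlapped widely. These 3 genes were called with each of the 24 libraries left out in turn.

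IGF1R was 1.70-fold lower in the pituitary (log2 fold change -0.77, SE 0.257, adjusted p = 0.0145), under the fold threshold. The log2 fold change was -0.29 (SE 0.155) for IGF2R, -0.66 (SE 0.459) for IGFBP3, 0.25 (SE 0.428) for IGFBP6 and 0.72 (SE 0.491) for IGFBP5, with adjusted p between 0.116 and 0.627. IGFBP6 turned to -0.24 without MHPJ replicate 2. Without the 5 pituitary libraries low in hormone genes and MHLBA replicate 1, the 3 calls remained. IGFBP5 was then higher in the pituitary by 1.37 on the log2 scale (SE 0.206). This alternative was chosen after seeing the data and left out the pituitary libraries lowest in IGFBP5, so it does not test that gene. All of MHPJ was left out while MHLBJ was kept, so breed and stage were not balanced between the tissues.

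Between the breeds, with all libraries used, only the long bone held genes of the 8 with an adjusted p under 0.05 by edgeR. Calls over all genes were also more frequent there than in the pituitary when averaged over stages. In the long bone, averaged over both stages, 1 of 8 genes was higher in DPs (IGFBP2) and 3 were lower (IGFBP5, IGFBP3 and IGF1R). Of all 14735 genes tested there, 11.4% were higher and 7.97% lower. IGFBP2 and IGFBP5 also had an adjusted p under 0.05, as 17.1% of all genes did, and both were called with each of the 12 long bone libraries left out in turn. IGFBP6 was 1.00 (SE 0.588) and not called, and 1.39 and called without MHLBJ replicate 1. The median log2 fold change of the 8 genes was -0.0056, against -0.011 over all genes.

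IGFBP2 encodes a binding protein with higher affinity for IGF2 than for IGF1. It had 54.4, 308 and 113 CPM in the DPLBJ libraries and 357, 152 and 339 CPM in the DPLBA libraries. In MHs it had 99.4, 46.8 and 27.2 CPM in MHLBJ and 11.4, 37.4 and 48.3 CPM in MHLBA. All libraries of DPLBA lay above all of MHLBA, and the juvenile groups overlapped through DPLBJ replicate 1 and MHLBJ replicate 1. The log2 fold change between the breeds was 2.26 averaged over stages (SE 0.510, adjusted p = 0.0167), 3.08 at the adult stage (SE 0.574, adjusted p = 0.0422) and 1.48 at the juvenile stage (SE 0.735, adjusted p = 0.342), where it was not called. With 1 library left out the averaged value lay between 1.79 and 2.59 and the adult value from 2.70 to 3.50. At the juvenile stage it was 1.89 without DPLBJ replicate 1 and 2.14 without MHLBJ replicate 1, and was then called, as it was with all 6 libraries by DESeq2 (1.50) and by edgeR without the filter (1.46).

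IGFBP5 (ENSECAG00000013425) encodes the main binding protein of bone matrix. Its 61.9, 38.3 and 32.5 CPM in DPLBJ lay below the 115, 142 and 125 CPM in MHLBJ. At the adult stage it had 55.2, 28.4 and 18.5 CPM in DPLBA and 39.2, 143 and 123 CPM in MHLBA, where MHLBA replicate 1 lay below DPLBA replicate 1. IGFBP5 was thus lower in DPs at both stages, by 1.51 on the log2 scale in juveniles (log2 fold change -1.51, SE 0.300, adjusted p = 0.136) and 1.62 in adults (log2 fold change -1.62, SE 0.549, adjusted p = 0.132). The juvenile call held with each library left out, between -1.83 and -1.32. The adult call was lost without DPLBA replicate 2 (-1.49), DPLBA replicate 3 (-1.31) or MHLBA replicate 2 (-1.30), and in the limma fits. Averaged over stages it was -1.58 (SE 0.341, adjusted p = 0.0147).

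IGFBP2 and IGFBP5 are neighbours on horse chromosome 6 in RefSeq's annotation of assembly TB-T2T, with 0 genes between them. In the DP long bone these neighbours moved in opposite directions. Coordinates are not given, since this assembly is not the one the reads were mapped to.

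**Figure D2:**
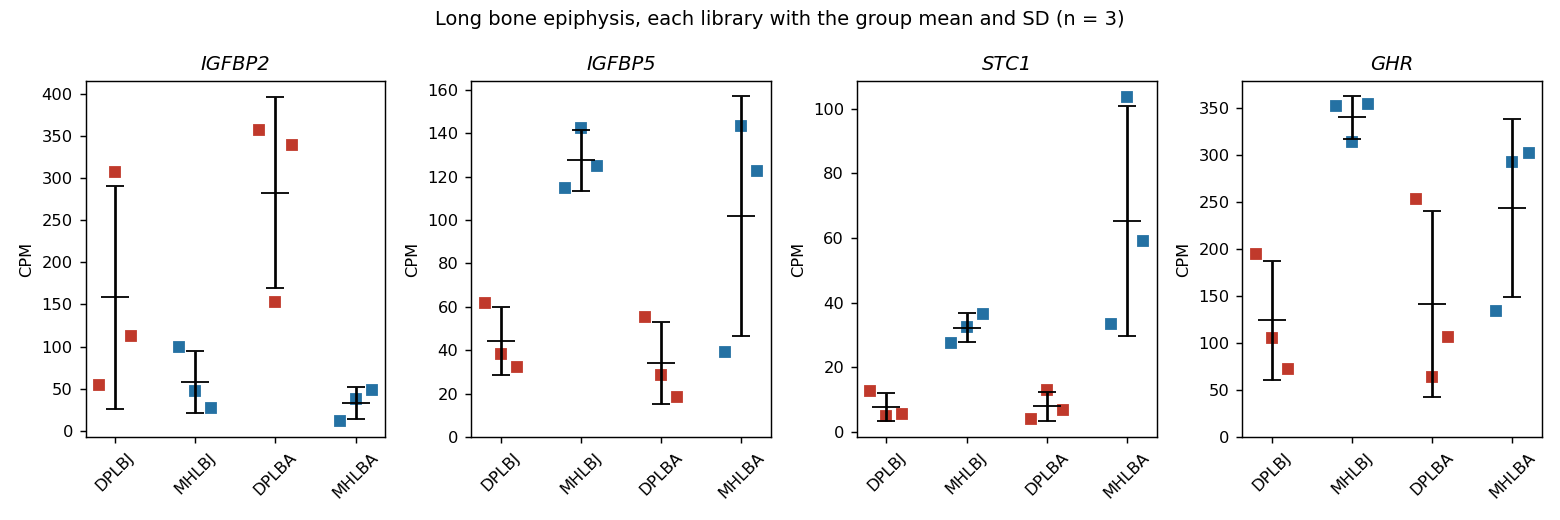
CPM of IGFBP2, IGFBP5, STC1 and GHR in the 12 long bone libraries, with the mean and SD of each group (n = 3), DPs in red and MHs in blue. IGFBP2 lies higher in DPs, at 152 CPM or more in DPLBA against at most 48.3 CPM in MHLBA, and IGFBP5, STC1 and GHR lie lower in DPLBJ than in MHLBJ.

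IGFBP3 (ENSECAG00000018104), the main carrier of circulating IGFs, was called lower in DPs in juveniles. It had 19.1, 7.67 and 3.60 CPM in DPLBJ and 20.4, 59.3 and 21.1 CPM in MHLBJ, which did not overlap but came close. The log2 fold change was -1.72 (SE 0.697, adjusted p = 0.263) and the call was lost without DPLBJ replicate 2 (-1.58), DPLBJ replicate 3 (-1.31) or MHLBJ replicate 2 (-1.07), which moved it by over 1.5 times. In adults it had 20.9, 20.9 and 7.65 CPM in DPLBA and 11.1, 50.1 and 30.7 CPM in MHLBA, and differed by -0.93 on the log2 scale (SE 0.573, adjusted p = 0.358). It was -1.31 and called without MHLBA replicate 1. Averaged over stages it was -1.35 (SE 0.491, adjusted p = 0.0772), and not called without MHLBJ replicate 2 (-0.99) or MHLBA replicate 2 (-1.09).

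For IGF1R, the signalling receptor, the size of the adult difference rested largely on 1 library. IGF1R had 27.6, 48.0 and 44.7 CPM in DPLBA and 360, 59.0 and 68.8 CPM in MHLBA. The groups did not overlap, but MHLBA replicate 1 lay far above the rest. The log2 fold change of -2.13 (SE 0.732, adjusted p = 0.135) became -0.70 without this library and the call was lost, as it was without DPLBA replicate 1 (-1.91) or DPLBA replicate 3 (-2.20) and with the replicate block (-1.50). In juveniles IGF1R had 31.4, 83.2 and 29.7 CPM in DPLBJ and 55.1, 55.9 and 71.9 CPM in MHLBJ. The difference of -0.30 on the log2 scale (SE 0.451, adjusted p = 0.763) was -1.01 and called without DPLBJ replicate 2. The averaged value of -1.24 (SE 0.466, adjusted p = 0.0859) was -0.52 without MHLBA replicate 1 and -1.13 without DPLBA replicate 1, and -0.97 in limma on log2(RPKM + 1), and its call was lost in each.

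IGFBP4 was called higher in adult DPs, with 376, 227 and 208 CPM in DPLBA and 43.6, 164 and 133 CPM in MHLBA. The groups did not overlap, and the log2 fold change was 1.21 (SE 0.482, adjusted p = 0.179). This call was lost without DPLBA replicate 1 (0.90), DPLBA replicate 2 (1.34), MHLBA replicate 1 (0.84) or MHLBA replicate 3 (1.35), and with all 6 libraries without TMM (1.08), with the replicate block (1.30) and in the limma fits. In juveniles it was not called.

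By stage, the juvenile long bone thus had 0 genes higher and 2 lower in DPs, where 8.33% of 13755 genes were higher and 5.47% lower. The adult long bone had 2 genes higher and 2 lower, where 10.3% of 14073 genes were higher and 8.03% lower. IGFBP2 was the 1 of 8 with an adjusted p under 0.05 in adults, against 2.24% of all genes. IGF1, IGF2R and IGFBP6 were not called in either stage. IGF1 had 67.9, 30.2 and 17.3 CPM in DPLBJ, 16, 39.9 and 23.5 CPM in MHLBJ, 18.7, 27.2 and 7.88 CPM in DPLBA and 19.0, 32.2 and 22.9 CPM in MHLBA. The breeds overlapped for this ligand at both stages, and its log2 fold change was 0.55 (SE 0.552) in juveniles and -0.52 (SE 0.455) in adults.

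Summed cell type markers of the long bone pieces are given by breed with no test, and their ranges overlapped in all lists given here except skeletal muscle. Osteoclast markers (6 of 6 found) summed to between 658 and 2923 CPM in the DP libraries and between 164 and 2432 CPM in the MH libraries. Chondrocyte markers (11 of 12 found) summed to between 256 and 30595 CPM in the DP libraries and between 35.9 and 2310 CPM in the MH libraries. Osteoblast and osteocyte markers (11 of 12) summed to between 17290 and 92594 CPM against between 6953 and 41042 CPM, blood cell markers (8 of 13) to between 8.15 and 11955 CPM against between 1.14 and 74.5 CPM, and adipocyte markers (6 of 7) to between 1694 and 6446 CPM against between 1025 and 8479 CPM. Skeletal muscle markers (6 of 7) summed to between 1.74 and 2.82 CPM in the DP libraries and between 3.28 and 458 CPM in the MH libraries, without overlap and highest in MHLBJ replicate 1 and MHLBA replicate 3 (280 CPM). Group medians lay far apart in some lists whose ranges overlapped. Chondrocyte medians were 7145 CPM in DPLBJ and 13710 CPM in DPLBA, against 51.9 CPM in MHLBJ and 156 CPM in MHLBA. Blood cell markers overlapped through DPLBJ replicate 1 alone, with 767 CPM or more in the other DP libraries. Adipocyte medians went the other way, at 2513 and 5058 CPM in DPLBJ and DPLBA against 7168 and 6372 CPM in MHLBJ and MHLBA. The part of these cell types in the differences of the IGF system was not tested.

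**Figure D3:**
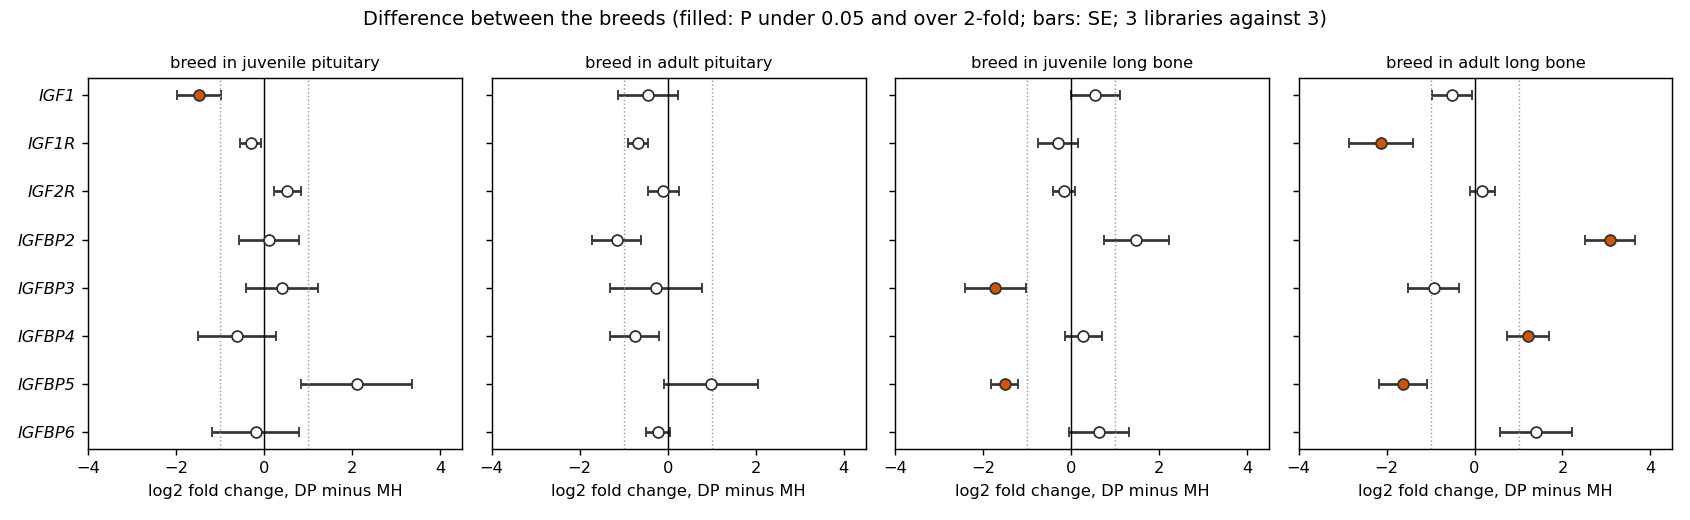
Log2 fold change between DPs and MHs (DP minus MH) of the 8 genes with its SE in 4 tissues and stages, 3 libraries against 3 in each, with genes past the threshold filled. The 4 filled genes of the adult long bone are IGFBP2 (3.08) and IGFBP4 (1.21) on the right and IGF1R (-2.13) and IGFBP5 (-1.62) on the left.

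In the juvenile pituitary, IGF1 was the 1 gene of 8 that was called, lower in DPs, where 12.7% of 14603 genes were lower and 7.6% higher. Its reads were few, with 32, 36 and 20 in DPPJ and 58, 66 and 38 in MHPJ. The groups did not overlap on the CPM scale, and the log2 fold change was -1.49 (SE 0.503, adjusted p = 0.108). The call was lost without MHPJ replicate 2 (-1.04), DPPJ replicate 1 (-1.63) or DPPJ replicate 3 (-1.21), and in limma on log2(RPKM + 1) with or without the filter (-0.79).

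IGFBP5 had 192, 160 and 220 CPM in DPPJ and 9.26, 112 and 3.11 CPM in MHPJ. The groups did not overlap, but MHPJ replicate 2 lay far above the other MHPJ libraries, and the log2 fold change of 2.10 (SE 1.27, adjusted p = 0.297) was not called by edgeR. The limma fits on log2(RPKM + 1) gave 3.53 and called it. Without MHPJ replicate 2, which held muscle and blood markers, it was 4.91 (SE 0.493, adjusted p = 0.00111). Without this library 4 genes were called, all higher in DPs: IGFBP5, IGFBP6 (1.85, adjusted p = 0.0129), IGFBP3 (1.83, adjusted p = 0.0186) and IGFBP4 (1.12, adjusted p = 0.0322). The share of all genes called in that fit is not given, so this count is not set against it. The values of IGFBP6, IGFBP4 and IGFBP3 with all 6 libraries, none of them called, were -0.20 (SE 0.999), -0.61 (SE 0.887) and 0.40 (SE 0.818). All 3 MHPJ libraries were low in hormone genes and the DPPJ libraries were not, so breed and the part of the gland cannot be told apart at this stage.

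Over the 12 pituitary libraries, IGFBP5 was low in most libraries that were low in hormone genes. MHPJ replicate 1, MHPJ replicate 3 and MHPA replicate 1 had between 3.11 and 9.26 CPM of it. The 7 libraries with more hormone gene reads had between 129 and 323 CPM. DPPA replicate 1, with 2011 CPM of hormone genes, lay between with 62.4 CPM, and MHPJ replicate 2 had 112 CPM of IGFBP5 with 81.0 CPM of hormone genes. IGFBP3 had 1.11 CPM in MHPA replicate 1, 2.63 and 3.80 CPM in MHPJ replicates 1 and 3, 8.71 CPM in DPPA replicate 1 and 18.4 CPM in MHPJ replicate 2. The last 2 lay within the range of the 7 libraries rich in hormone genes, between 7.35 and 31.6 CPM. IGFBP2 was highest in MHPA replicate 1, with 130 CPM.

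**Figure D4:**
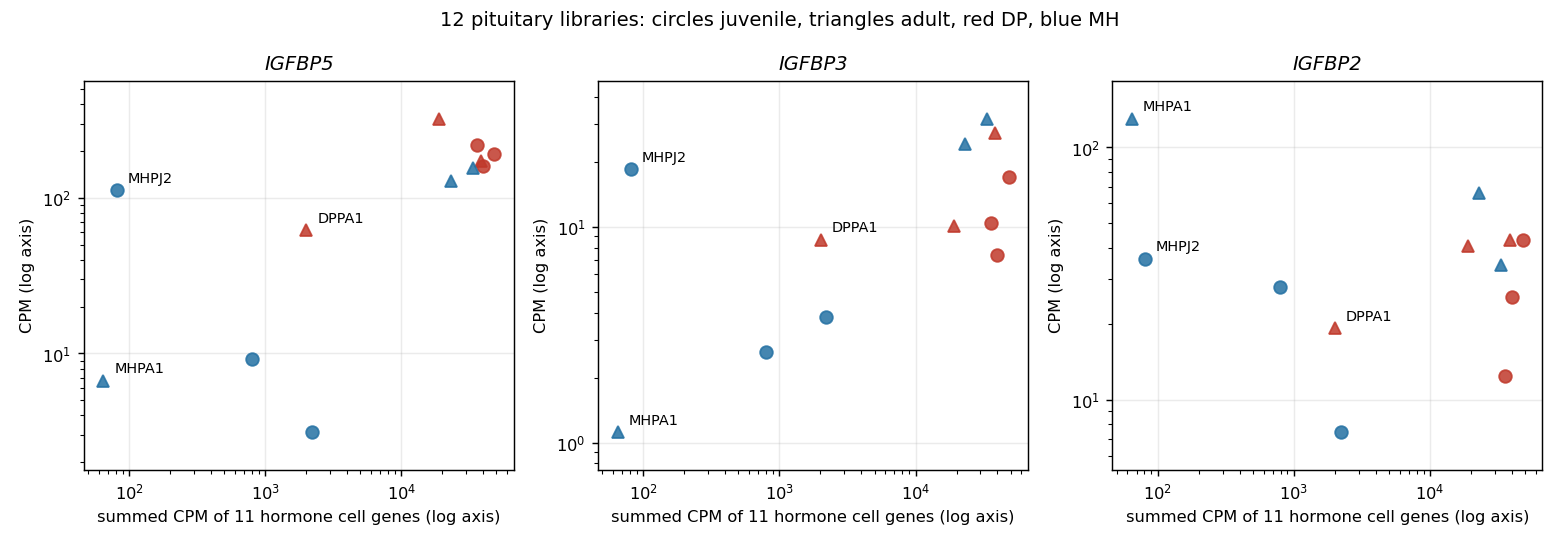
CPM of IGFBP5, IGFBP3 and IGFBP2 against the summed CPM of 11 hormone genes of the anterior pituitary (both log axes) in the 12 pituitary libraries. IGFBP5 lies between 129 and 323 CPM in the 7 libraries on the right and at 112 CPM in MHPJ replicate 2, far above the MHPJ libraries at 3.11 and 9.26 CPM.

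In the adult pituitary 0 of 8 genes were called between the breeds by edgeR, where 1.75% of 14376 genes were higher and 1.18% lower in DPs. DESeq2 also called 0, and IGF1R alone had an unadjusted P under 0.05. IGF1R had 34.4, 23.3 and 31.6 CPM in DPPA and 54.8, 43.0 and 46.0 CPM in MHPA, without overlap, and a difference of -0.67 on the log2 scale (SE 0.225, adjusted p = 0.515), under the fold threshold. IGFBP2 had 19.3, 43.0 and 40.6 CPM in DPPA and 130, 65.8 and 34.3 CPM in MHPA, and differed by -1.16 on the log2 scale (SE 0.559, adjusted p = 0.599). It was -1.52 and called without MHPA replicate 3. IGFBP4 was -0.75 (SE 0.549), and -1.18 and called without MHPA replicate 1. Without DPPA replicate 1 and MHPA replicate 1, both low in hormone genes, IGFBP2 was -0.25 (SE 0.299), IGFBP5 0.82 (SE 0.296), and IGFBP4 was called with -1.02 (SE 0.287, adjusted p = 0.120), an alternative chosen after seeing the data.

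Averaged over stages, 0 of 8 genes were called in the pituitary, where 3.11% of 15200 genes were higher and 4.76% lower in DPs. IGF1R had an unadjusted P under 0.05 in this test, at -0.46 on the log2 scale (SE 0.161, adjusted p = 0.136). The widest differences that were not called were those of IGFBP5 (1.58, SE 0.895) and IGF1 (-0.94, SE 0.442). IGFBP5 was 2.95 and called without MHPJ replicate 2. IGF1 was -1.41 without DPPA replicate 2 and -1.09 without MHPJ replicate 3, and was then called.

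Between the stages, IGF1 in the MH pituitary was the 1 gene called, higher in juveniles. Its 58, 66 and 38 reads in MHPJ stood against 16, 39 and 20 reads in MHPA, which is 3.18, 5.55 and 2.41 CPM against 1.11, 2.18 and 1.21 CPM. The groups did not overlap and the log2 fold change, juvenile minus adult, was 1.34 (SE 0.528, adjusted p = 0.423), while 4.5% of 14430 genes were called higher and 3.24% lower. The call was lost without MHPJ replicate 1 (1.47), MHPJ replicate 2 (0.90), MHPA replicate 1 (1.17) or MHPA replicate 3 (1.22), and with all 6 libraries when TMM (1.17) or the filter (1.29) was left out, when all 12 pituitary libraries were fitted (1.33) and in the limma fits. IGFBP2 had 27.9, 36.3 and 7.42 CPM in MHPJ and 130, 65.8 and 34.3 CPM in MHPA, which overlapped, and its log2 fold change of -1.65 (SE 0.740, adjusted p = 0.453) was not called. It was called by edgeR without TMM (-1.72), without the filter (-1.68), with the replicate block (-1.73) and with all 12 pituitary libraries (-1.65), by DESeq2 (-1.63) and by the limma fits. Without MHPJ replicate 2, IGFBP5 was -3.94 and IGFBP6 -1.78, and both were called, against -1.15 (SE 1.56) and 0.25 (SE 0.980) with all 6 libraries. IGFBP2 was -1.99 and called without MHPA replicate 3. All MHPJ libraries and MHPA replicate 1 were low in hormone genes.

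In the other stage comparisons 0 of 8 genes were called by edgeR. In the DP pituitary 0.929% of 14533 genes were higher and 2.64% lower in juveniles, and IGF2R alone had an unadjusted P under 0.05, with 81.4, 97.8 and 107 CPM in DPPJ and 47.3, 79.1 and 68.8 CPM in DPPA. Its log2 fold change of 0.52 (SE 0.212, adjusted p = 0.427) was under the fold threshold. In the long bone of MHs 0.763% of 13899 genes were higher and 2.14% lower, and IGF1R stood at -1.48 (SE 0.712, adjusted p = 0.998), again with MHLBA replicate 1 in the adult group. It was called without MHLBA replicate 2 (-1.89) or MHLBA replicate 3 (-1.85). In the DP long bone 1.58% of 13866 genes were higher and 1.56% lower. IGF1 was 1.13 (SE 0.610, adjusted p = 0.988) there and IGFBP4 -1.01 (SE 0.473, adjusted p = 0.988), with IGF1 called without DPLBJ replicate 3 (1.48) and IGFBP4 without DPLBJ replicate 2 (-1.34). IGFBP2 was -1.71 without DPLBJ replicate 2 and IGFBP3 -1.50 without DPLBJ replicate 1, and both were then called, against -0.79 (SE 0.650) and -0.68 (SE 0.658) with all 6 libraries. In the long bone of either breed 0 of the 8 genes had an unadjusted P under 0.05. DESeq2 called 0 genes in DPs and 1, IGF1R, in MHs. These comparisons share their libraries with those between the breeds.

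Whether the difference between the breeds itself differed was tested as an interaction, with an adjusted p under 0.05 from edgeR as the call. Between the stages 0 of 8 genes passed in the pituitary and 0 in the long bone, where 0% of all genes did, 0 of the 8 had an unadjusted P under 0.05 in either tissue, and DESeq2 called 0. Between the tissues, where the tissues of a horse were not paired, 0 of 8 genes passed in juveniles, against 4.88% of 15417 genes. In adults 0 of 8 passed, against 0.116% of 15474 genes. In each stage 2 of 8 had an unadjusted P under 0.05 and DESeq2 called 1. The share of all genes under these last 2 rules is not given, so their counts are not set against it. The largest was IGFBP2 in adults, whose log2 fold change between the breeds was lower in the pituitary than in the long bone (difference -4.29, SE 0.875, adjusted p = 0.0863). DESeq2 gave it an adjusted p of 0.000247. In adults the difference was 2.53 for IGFBP5 (SE 1.32, adjusted p = 0.371) and -2.03 for IGFBP4 (SE 0.798, adjusted p = 0.249). In juveniles the difference was 3.64 for IGFBP5 (SE 1.34, adjusted p = 0.121) and -2.04 for IGF1 (SE 0.781, adjusted p = 0.136). Without MHPJ replicate 2, that of IGFBP5 was 6.46 (adjusted p = 0.00147) and that of IGFBP3 was 3.57 (adjusted p = 0.0454).

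Around the 8 genes, a list of 50 genes of IGF proteolysis, signalling and regulation was counted, of which 45 were found and 37 to 42 tested in a comparison. In the juvenile long bone 3 were higher and 5 lower in DPs, and the list's median was -0.18 on the log2 scale against 0.053 over all genes. In the adult long bone 3 were higher and 5 lower, with a median of -0.36 against -0.035. Over all genes 8.33% were higher and 5.47% lower in juveniles, and 10.3% and 8.03% in adults.

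STC1, which encodes stanniocalcin-1, an inhibitor of the pappalysin proteases that cut IGFBPs, was lower in DPs at both stages. It had 12.7, 4.92 and 5.32 CPM in DPLBJ, 27.4, 32.5 and 36.4 CPM in MHLBJ, 3.98, 12.8 and 6.80 CPM in DPLBA and 33.3, 104 and 58.9 CPM in MHLBA, without overlap at either stage. The log2 fold change was -2.06 (SE 0.426, adjusted p = 0.136) in juveniles, -3.10 (SE 0.547, adjusted p = 0.0393) in adults and -2.60 (SE 0.370, adjusted p = 0.00512) averaged. The calls held with each library left out.

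GHR, the receptor through which growth hormone raises IGF1 expression, was called lower in juvenile DPs (log2 fold change -1.44, SE 0.384, adjusted p = 0.154), with 195, 106 and 72.6 CPM in DPLBJ and 353, 314 and 354 CPM in MHLBJ. In adults it had 254, 64.6 and 107 CPM in DPLBA and 134, 293 and 303 CPM in MHLBA, which overlapped, and -0.83 (SE 0.536, adjusted p = 0.380) was not called. Averaged over stages GHR was called at -1.16 (SE 0.355, adjusted p = 0.0449), and not without DPLBA replicate 2 (-0.98). HMGA2, a chromatin factor of growing tissue that acts on IGF2BP2, was higher in DPs, by 3.35 in juveniles (SE 0.732, adjusted p = 0.141) and 3.26 in adults (SE 0.928, adjusted p = 0.0963). Its reads were few, at most 8 in an MH library and between 22 and 99 in a DP library. GRB14, an adaptor that inhibits the insulin receptor, was lower in DPs, at -2.01 in juveniles (SE 0.564, adjusted p = 0.166) and -2.32 in adults (SE 0.620, adjusted p = 0.0868). INSR, the insulin receptor gene, was called lower in juveniles, at -2.03 (SE 0.471, adjusted p = 0.143), and IGF2BP3, which encodes an IGF2 mRNA-binding protein, higher in adults, at 1.94 (SE 0.550, adjusted p = 0.0962). Averaged over stages 8 of 38 list genes were called, 3 higher and 5 lower in DPs, and 12 had an adjusted p under 0.05, beside 11.4%, 7.97% and 17.1% of all genes.

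In the juvenile pituitary 4 of 42 list genes were higher and 8 lower in DPs, beside 7.6% and 12.7% of all genes, with a median of -0.43 against -0.073 over all genes. IRS4, a docking protein of insulin and IGF receptors, was higher by 6.47 on the log2 scale (SE 1.24, adjusted p = 0.0323), with between 54.0 and 98.0 CPM in DPPJ and 1 to 35 reads, at most 2.22 CPM, in MHPJ. PAPPA2, a protease of IGFBP3 and IGFBP5, was higher by 3.37 (SE 0.791, adjusted p = 0.0498), with 3.91, 8.93 and 2.75 CPM in DPPJ and 0.219, 0.252 and 0.951 CPM in MHPJ. The MHPJ values rested on 4, 3 and 15 reads. In adults, DPPA replicate 1 and MHPA replicate 1, both low in hormone genes, had 0.666 and 0.418 CPM of PAPPA2. The other adult libraries had 6.45 and 1.65 CPM in DPPA and 6.20 and 2.48 CPM in MHPA. IRS4 had 26.2 CPM in DPPA replicate 1 and 70.7 CPM in MHPA replicate 1. IGF2BP2, an IGF2 mRNA-binding protein, was lower at -3.50 (SE 0.817, adjusted p = 0.0492), and at -2.26 without MHPJ replicate 2. STC2 was called at -3.80 (SE 1.47, adjusted p = 0.141), and was -0.60 and not called without MHPJ replicate 2. GHR was called higher in DPs, at 1.15, and not without DPPJ replicate 3, MHPJ replicate 1 or MHPJ replicate 3. All 3 MHPJ libraries were low in hormone genes and the DPPJ libraries were not. Breed and the part of the gland thus cannot be told apart in these juvenile values. In the adult pituitary 1 of 42 was higher (IGF2BP3, 2.11, SE 0.539, adjusted p = 0.492) and 2 were lower, beside 1.75% and 1.18% of all genes. These were HMGA2 (-2.44, SE 0.835, adjusted p = 0.515), with at most 14 reads in DPPA and 9, 40 and 46 in MHPA, and IGFBP7 (-1.39, SE 0.421, adjusted p = 0.503), which encodes a secreted protein of low affinity for IGFs. IGFBP7 had 6.47, 8.16 and 10.5 CPM in DPPA and 34.6, 16.6 and 14.9 CPM in MHPA, without overlap. Its call was lost without DPPA replicate 1 (-1.24) or MHPA replicate 1 (-0.90), and without both of them (-0.75). That of HMGA2 was kept in 2 of 6 fits with 1 library left out. Averaged over stages 3 of 42 were higher and 3 lower in DPs, beside 3.11% and 4.76% of all genes. PAPPA2 (1.69) and STC2 (-1.88) were among them, each called in 5 of 12 fits with 1 library left out.

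Between the stages, 1 of 42 list genes was higher and 2 lower in juveniles in the MH pituitary, beside 4.5% and 3.24% of all genes, led by IRS4 at -6.62 (SE 1.31, adjusted p = 0.323). In the DP pituitary 1 of 41 was higher (GRB14, 1.36, SE 0.204, adjusted p = 0.419) and 1 lower (IGF2BP2, -2.08, SE 0.424, adjusted p = 0.419), beside 0.929% and 2.64% of all genes. In MH long bone 0 of 37 were higher and 2 lower, beside 0.763% and 2.14% of all genes. Of these 2, STC1 was at -1.03 and was called in 2 of 6 fits with 1 library left out. In the DP long bone 0 of 38 were called by edgeR, with 1 (IGFBP7) at an unadjusted P under 0.05. Between the tissues 5 of 42 were higher and 13 lower in the pituitary, and 29 had an adjusted p under 0.05, beside 21.5%, 17.4% and 61.8% of all genes. GHR was lower in the pituitary, at -3.16 (SE 0.239, adjusted p = 4.63e-09), as was ADAM12, a protease of IGFBP3 and IGFBP5, at -3.51 (SE 0.304, adjusted p = 2.24e-08). Higher in the pituitary were IRS4 by 8.52 on the log2 scale, IGFBPL1 by 5.68, PLAG1 by 3.69 and PAPPA2 by 2.40. IGFBP7 (-1.33) and STC2 (-2.20) were called lower. IGFBPL1 had at most 10 reads and PLAG1 at most 6 reads in a long bone library. IRS4 had at most 3 reads in any long bone library, so its level there was not told apart from 0.

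The genes most like each of the 8 were sought over the 12 libraries of the tissue where the gene had the higher mean, by Pearson's r of log2(CPM + 1) among genes with a mean of at least 10 CPM. These libraries share breed, stage and cell makeup, so r is a description. IGFBP2 in the long bone was most like C1QA, C1QB and C1QC (r between 0.945 and 0.948), the chains of complement C1q. IGFBP5 in the pituitary was most like ISLR (0.960), SIN3A (0.957) and B4GALNT3 (0.957), and IGFBP6 in the pituitary most like PECAM1 (0.933), COL6A1 (0.925) and PARVA (0.915). In the long bone the nearest gene was LHFPL3 for IGF1 (0.889), GLIS3 for IGF1R (0.965), COG7 for IGF2R (0.846), YPEL2 for IGFBP3 (0.921) and HPS4 for IGFBP4 (0.930).

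The binding proteins also differed in their share of the summed IGFBP RPKM. In the long bone IGFBP2 made up between 29.2% and 64.3% of the sum in the 6 DP libraries and between 12.5% and 33.9% in the 6 MH libraries. IGFBP5 made up between 1.68% and 15.9% in DPs and between 18.7% and 33.6% in MHs. The ranges of the breeds thus did not overlap for IGFBP5, while those of IGFBP2 did. A share also depends on the sum, which was 64.0 RPKM in MHLBA replicate 1 and at least 214.6 RPKM in DPs. On the RPKM scale itself, IGFBP5 of MHLBA replicate 1 (15.55) lay within the DP range, between 10.75 and 34.21. IGFBP4 took similar shares, between 23.6% and 42.4% in DPs and between 28.2% and 40.4% in MHs. In the pituitary IGFBP5 took between 26.9% and 63.5% in the 7 libraries rich in hormone genes and between 1.92% and 30.2% in the other 5. These shares use the same RPKM as the levels above and are given with no test.

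**Figure D5:**
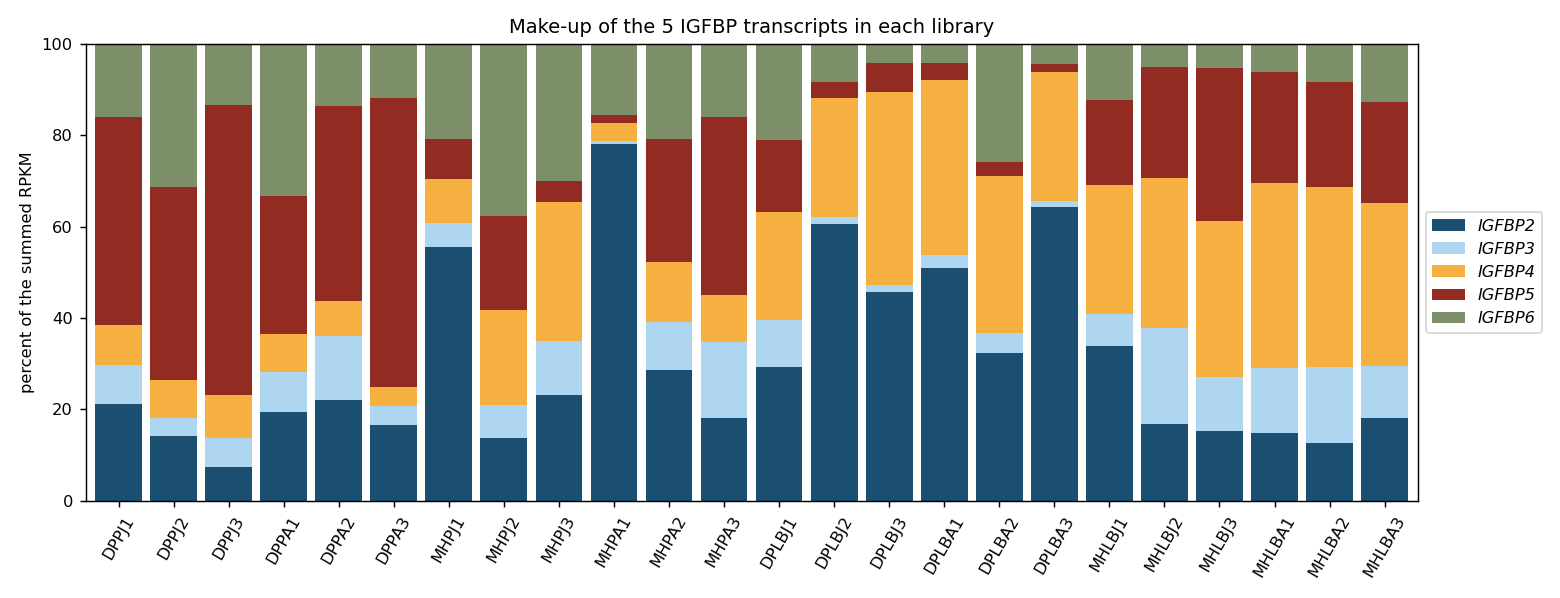
Share of each of 5 IGFBP genes in their summed RPKM (percent) in each of the 24 libraries. IGFBP5 takes at most 15.9% in the 6 DP long bone libraries and at least 18.7% in the 6 MH long bone libraries, and IGFBP2 takes 78.0% in MHPA replicate 1.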

How the data were processed

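RNA was taken from ground tissue, depleted of ribosomal RNA and sequenced as directional libraries. The deposited table holds read counts per gene and RPKM values that the authors computed. The labels' processing notes name TopHat2 and edgeR, while the methods of the study name Salmon, so the counting tool is not settled. The deposited RPKM divides by more reads than the table sums to, and in DPLBA replicate 2 it departed from that library's own scaling by over 2% in 253 of 8914 genes. The genes described departed by at most 0.388% in any library.

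Counts were filtered with filterByExpr (minimum count 10), scaled with TMM and tested with edgeR's quasi-likelihood test (R 4.3.3, edgeR 4.0.16, limma 3.58.1, DESeq2 1.42.0). A comparison used its own libraries, 3 against 3, and averaged comparisons and interactions used all libraries concerned. A gene was called at an unadjusted P under 0.05 with a fold change over 2, as in the study, and interactions at a Benjamini-Hochberg adjusted p under 0.05 over all genes tested. All listed genes were named. Of the pathway list, at most 4 called genes of the largest fold change were named, plus IGFBP1, IGFBP7, PAPPA2, STC1, STC2 and GHR. The genes and lists were chosen with earlier results of these data known. An exact permutation test of 3 against 3 cannot go below p = 0.1. The labels do not say that same-numbered libraries share an animal across groups. Over all genes their deviations from the group means correlated in the adult pituitary (r = 0.643, 0.549 and 0.385), where the replicate block changed no call of the genes described, and not at over 0.1 for every pair elsewhere. The scripts were tested on simulated data. Alternatives were no TMM, no filter, DESeq2, limma on log2(RPKM + 1) or log2(RPKM + 0.1), the block, all libraries of a tissue, and each library left out. Depth was between 11433209 and 27007342 reads per library.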

Additional observations from a re-analysis of the deposited data

Results flagged for a closer look

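In 4 of 42 genes tested of the pathway list, beside 4.88% of all 15417 genes, the difference between the breeds itself differed between the tissues in juveniles, by edgeR's test of the interaction over all genes. The log2 fold change between DPs and MHs was higher in the pituitary than in the long bone by 3.28 for STC1 (adjusted p = 0.0386) and by 2.58 for GHR (adjusted p = 0.0282). It was lower in the pituitary for FOXO4, with a difference of -1.38 (adjusted p = 0.0435), and for HMGA2, with a difference of -5.39 (adjusted p = 0.0258). All 3 MHPJ libraries were low in hormone genes, and the part of this in these values was not tested.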

How the results depend on the processing

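Depth limits IGF1 in the pituitary, with 8 to 66 reads per library, and groups of 3 limit every test. The 98 fold changes of the genes named by the rule or in the text gave 1856 alternative values, the adjusted p as the threshold included. Of these, 1587 kept their direction and side of the threshold, 197 kept the direction but no longer passed, 53 newly passed in the same direction and 19 changed direction. The cause of these changes was not tested. In the juvenile pituitary IGFBP4 turned to 0.23 with the replicate block and to 0.31 and 0.36 in limma (pseudocount 1 and 0.1), and IGFBP6 to 0.64, 0.76 and 0.80. Between the stages in the MH pituitary IGFBP6 turned to -0.65, -0.76 and -0.80 in the same fits. With 1 library left out, the juvenile pituitary gave -1.10 to 1.12 for IGFBP4, -0.66 to 1.85 for IGFBP6 and -0.036 to 1.83 for IGFBP3, the juvenile long bone -0.13 to 0.93 for IGF1, the MH stages -1.78 to 0.72 for IGFBP6, and the tissues -0.24 to 0.51 for IGFBP6. With an adjusted p as the call, the members called were 0 in the juvenile pituitary, 0 in the juvenile long bone, 1 in the adult long bone, 0 between the stages in the MH pituitary and 2 in the long bone averaged over stages. Without TMM, 1 was called in the adult pituitary and 1 in the averaged pituitary. Between the stages of MHs DESeq2 called 2 in the pituitary and 1 in the long bone, and 1 interaction between the tissues in each stage. With no filter 1 was called between the stages in the MH long bone and 1 in the DP long bone, and with all 12 libraries 1 in the MH long bone. The limma fits called 2 in the juvenile pituitary (pseudocount 0.1), 2 in adult long bone and 1 in the averaged pituitary (each form), and 1 between the stages in the DP long bone (pseudocount 1). Without the libraries low in hormone genes, 1 was called in the adult pituitary. With the replicate block, where numbers were not shown to pair animals, 2 were called in the adult long bone, 2 between the stages in the MH pituitary, 1 in the DP long bone and 1 in the averaged pituitary. For most of these settings the share of all genes called is not given, so these counts are not set against it. By CPM in place of RPKM the order of the 8 groups was kept for 3 of 8 genes.

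With each library left out, the members called between the breeds ranged from 0 to 4 in the juvenile pituitary, 0 to 1 in the adult pituitary, 1 to 3 in the juvenile long bone, 2 to 3 in the adult long bone, 0 to 1 in the averaged pituitary and 3 to 5 in the averaged long bone. Between the stages they ranged from 0 to 2 in the MH pituitary, 0 to 1 in the MH long bone and 0 to 2 in the DP long bone, and the interaction between the tissues in juveniles from 0 to 2. The share of all genes called in these fits is not given.

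Without TMM the median log2 fold change of all genes moved from -0.013 to -0.22 in the adult pituitary, from 0.053 to -0.17 in the juvenile long bone and from 0.032 to 0.24 between the tissues. Calls higher and lower went from 252 and 169 to 131 and 349, from 1146 and 753 to 851 and 1152, and from 3474 and 2808 to 4037 and 2360. Between the stages they went from 650 and 467 to 585 and 655 in the MH pituitary, from 135 and 383 to 240 and 228 in the DP pituitary, from 106 and 298 to 152 and 220 in the MH long bone, and from 219 and 217 to 179 and 273 in the DP long bone.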

Other observations

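IGFBP1, a binding protein made mainly by the liver and the neighbour of IGFBP3 on horse chromosome 4 in RefSeq's annotation of assembly TB-T2T, was near 0 in all but 2 libraries. It had 230 reads (8.60 CPM) in MHLBA replicate 2 and 47 reads (2.19 CPM) in DPPJ replicate 2, and at most 2 reads in each of the other 22 libraries.

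The ratio of IGFBP2 to IGFBP5 on the RPKM scale lay between 1.83 and 38.2 in the 6 DP long bone libraries and between 0.454 and 1.81 in the 6 MH long bone libraries. DPLBJ replicate 1 and MHLBJ replicate 1, the libraries nearest to the other breed, were at 1.83 and 1.81. The ratio was formed after the differences of both genes had been seen and is given with no test.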
